A study of Mus musculus with 30 samples.

Results

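The comparison described here sets late against early weeks of oral benzo[a]pyrene (BaP) in Cyp1a1 knockout (KO) mice. BaP is a carcinogenic polycyclic aromatic hydrocarbon from combustion. The late group was 3 arrays, replicate 1 of week 12 and both replicates of week 16, and the early group was 4 arrays, both replicates of weeks 4 and 8. These were 7 of the 30 arrays of the series. The rule that chose them uses the labels, with 1 exception: week 12 replicate 2 was left out because the standard deviation (SD) of all its log2 values was under 1.5. Its values are given beside the results but enter no test unless stated.

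All animals compared were B6 males. Per the labels' protocols they were 6 weeks old when the diet began, and the diet gave about 12.5 mg/kg/day of BaP. The late KO mice were therefore 18 weeks old (week 12) or 22 weeks old (week 16), and the early KO mice 10 weeks old (week 4) or 14 weeks old (week 8), so exposure and age cannot be told apart. KO mice at week 0 (2 arrays) had no BaP and shared the estimate of spread. Wild-type (WT) B6 males on the same diet served as the second contrast, with 4 late and 4 early arrays. The tissue is labelled as the duct of the preputial gland, and the protocols describe whole preputial glands dissected free of other tissue. The series studies squamous cell carcinoma forming in that duct, and the labels do not say whether a given gland held a tumour. How the knockout was made is not given in the sources used here.

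Preputial glands are paired, modified sebaceous glands of rodents whose oily product leaves through a duct lined by stratified squamous epithelium. BaP binds the aryl hydrocarbon receptor (AhR), which induces the cytochrome P450 enzymes Cyp1a1 and Cyp1b1. Both oxidise BaP, and in the mouse intestine and liver Cyp1a1 is known mainly for clearing oral BaP. Squamous epithelium that differentiates builds a cornified envelope from precursors such as involucrin and the small proline-rich (Sprr) and late cornified envelope (Lce) proteins. Stefins of the A type are intracellular inhibitors of cathepsins, and beta-defensins are small secreted antimicrobial peptides. In the mouse, both groups of genes lie in clusters of related copies.

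Of the genes the naming rule took, the 4 with the smallest p values in this comparison were Stfa1, Sprr2e, Defb6 and Defb46, from 3 such clusters. The sequences below show how alike the copies are just upstream of their transcription starts. Each is the 250 bases before the annotated start in RefSeq (assembly GRCm38.p6), written 5′ to 3′ on the strand of the gene. Capitals mark a longest run of bases that all members shown for a cluster share without a mismatch. The stefins share another run of equal length, left in lower case. The stefins are Stfa1 at chr16:36276898-36277147 (plus strand), Stfa3 at chr16:36455393-36455642 (minus strand) and Csta1 at chr16:36131190-36131439 (minus strand).
Stfa1: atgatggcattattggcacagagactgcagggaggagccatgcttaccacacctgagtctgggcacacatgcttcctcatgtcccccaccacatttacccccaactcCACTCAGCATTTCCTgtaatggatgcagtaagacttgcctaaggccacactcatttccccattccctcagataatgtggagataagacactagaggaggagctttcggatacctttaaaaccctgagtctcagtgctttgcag
Stfa3: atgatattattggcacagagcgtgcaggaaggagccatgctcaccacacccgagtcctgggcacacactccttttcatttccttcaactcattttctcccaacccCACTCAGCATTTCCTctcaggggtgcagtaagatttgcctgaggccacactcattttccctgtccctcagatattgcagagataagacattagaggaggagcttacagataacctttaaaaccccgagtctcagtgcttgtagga
Csta1: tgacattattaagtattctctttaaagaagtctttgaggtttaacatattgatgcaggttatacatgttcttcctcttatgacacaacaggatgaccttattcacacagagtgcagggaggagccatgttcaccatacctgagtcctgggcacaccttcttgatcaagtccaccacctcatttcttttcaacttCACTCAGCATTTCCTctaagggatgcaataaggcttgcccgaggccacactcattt
The capitals are 15 bases long, begin 143, 145 and 56 bases upstream of Stfa1, Stfa3 and Csta1, and occur in 7 of 32851 annotated promoter windows of this length. In a global alignment Stfa1 and Stfa3 matched at 211 of 250 bases, and Stfa1 and Csta1 at 134 of 250. Stfa2, a dim neighbour in the same cluster, matched Stfa1 at 204 of 250 bases. The measured stefin genes span 335 kb of chromosome 16.

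The beta-defensins are Defb6 at chr8:19225228-19225477 and Defb46 at chr8:19239666-19239915, both on the plus strand, whose starts lie 14.4 kb apart.
Defb6: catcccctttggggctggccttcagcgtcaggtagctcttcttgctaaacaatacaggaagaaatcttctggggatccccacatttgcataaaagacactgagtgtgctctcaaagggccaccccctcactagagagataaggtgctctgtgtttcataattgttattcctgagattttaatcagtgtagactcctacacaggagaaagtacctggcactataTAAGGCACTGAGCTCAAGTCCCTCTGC
Defb46: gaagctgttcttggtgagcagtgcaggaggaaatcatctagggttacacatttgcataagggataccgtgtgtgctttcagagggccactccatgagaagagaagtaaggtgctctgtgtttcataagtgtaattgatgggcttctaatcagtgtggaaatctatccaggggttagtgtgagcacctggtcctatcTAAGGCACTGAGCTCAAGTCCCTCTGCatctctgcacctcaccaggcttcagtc
They share a run of 27 bases, found in 5 of the 32851 windows, and matched at 172 of 250 bases. The run ends 1 base before the annotated start of Defb6 and 28 bases before that of Defb46. The Sprr2 genes shown are Sprr2e at chr3:92351893-92352142 and Sprr2d at chr3:92338890-92339139, both on the plus strand.
Sprr2e: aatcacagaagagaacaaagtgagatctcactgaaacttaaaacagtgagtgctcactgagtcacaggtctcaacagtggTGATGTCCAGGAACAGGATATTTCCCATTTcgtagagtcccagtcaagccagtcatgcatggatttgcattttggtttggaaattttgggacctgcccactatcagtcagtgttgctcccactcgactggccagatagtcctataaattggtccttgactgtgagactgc
Sprr2d: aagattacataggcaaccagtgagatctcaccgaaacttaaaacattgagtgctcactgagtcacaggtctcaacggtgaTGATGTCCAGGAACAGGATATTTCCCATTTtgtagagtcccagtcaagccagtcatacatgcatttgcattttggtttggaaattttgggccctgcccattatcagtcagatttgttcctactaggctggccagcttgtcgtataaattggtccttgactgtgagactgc
Their shared run is 30 bases long and occurs in no other window, and they matched at 224 of 250 bases. Both hold the AP-1 motif TGANTCA (N is any base, both strands searched) 193 bases upstream, as do 6.75% of all windows. Both also hold TATAAA 29 bases upstream, as do 12.4% of windows. The core of the AhR response element, GCGTG on either strand, was found in Stfa3, 231 bases upstream, and in 28.2% of all windows. It was not among the letters of the other 6 windows shown. A match is a description of letters and not a binding site. These windows lie before the transcript starts. Transcript and probe sequences were not compared here, and how far the probes of such copies pick up each other's transcripts was not tested.

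The spread of values within an array was narrower in the week 16 arrays than in the early arrays. The SD of all log2 values was 1.89, 1.80 and 1.76 in the late arrays (week 12 replicate 1, then week 16 replicates 1 and 2), against 1.93 and 1.97 at week 4 and 1.96 and 1.89 at week 8. It was 1.35 in the array left out. In the week 16 arrays dim genes were also measured higher, and genes of middle level lower. For genes with a mean level of 3 to 4 the median difference from the early mean was 0.08 in week 12 replicate 1, 0.27 in week 16 replicate 1 and 0.34 in week 16 replicate 2. For genes at 7 to 8 it was -0.06, -0.18 and -0.27 in the same order. Olfactory receptors, dim genes of another tissue, had a median difference of 0.27, and 998 of 1068 differed upward. The median of all genes was 0.09. After cyclic loess normalization, a setting chosen after this shift was seen, the median of all genes was -0.00 and that of the olfactory receptors 0.04. Most lists and families below are given with both values. A fit with the array SD as a covariate, also chosen after the shift was seen, is given where it turns a median or moves it far. The SD runs with the comparison, so the effect of the weeks and that of the range cannot be told apart there.

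**Figure D1:**
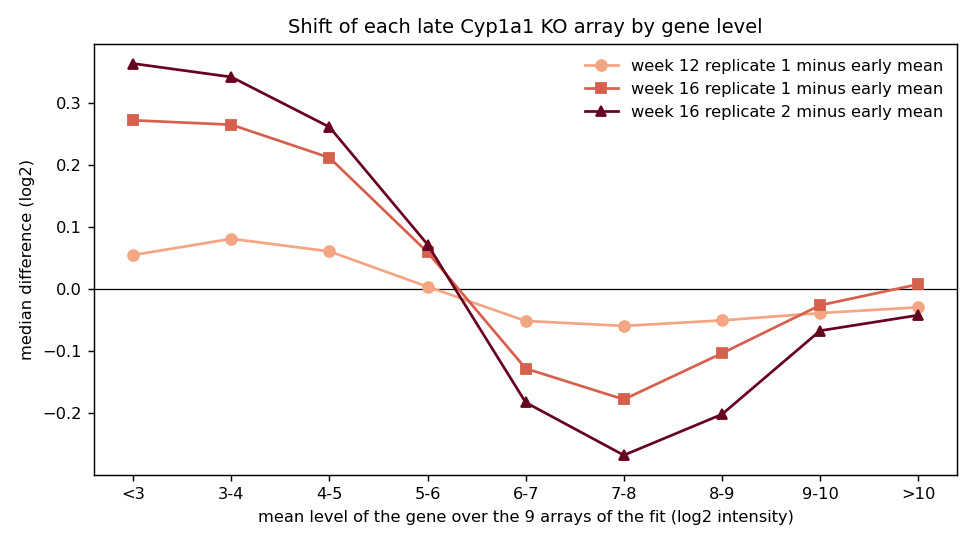
Median difference of each late Cyp1a1 KO array from the mean of the 4 early arrays (vertical axis, log2), with genes grouped by their mean level over the 9 arrays of the fit (horizontal axis, log2 intensity). Points of the week 16 arrays lie above 0 for dim genes and below 0 for genes at 6 to 9. Week 12 replicate 1 stays within 0.08 of 0.

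Other facts of the arrays touch the comparison. The labelled tissue was borne out by sebaceous and epithelial genes: Awat2, a wax ester synthase of sebaceous glands, lay at 10.40 to 10.84 in the late and 10.54 to 11.29 in the early arrays, and the basal keratin gene Krt14 at 9.36 to 9.83 in the late and 9.62 to 9.97 in the early arrays. Awat1, a relative of Awat2, was dim at 3.42 to 4.17 in the late and 3.71 to 3.86 in the early arrays. Week 4 replicate 2 stood apart from the other early arrays in skeletal muscle genes. Tnnt3, a troponin of fast muscle, was at 5.36, 5.81 and 5.81 in the late arrays, against 5.19 and 8.58 at week 4 and 5.30 and 5.21 at week 8. The mean level of the 26 muscle genes was 4.53 to 4.87 in the late arrays, against 5.54 in week 4 replicate 2 and 4.42 to 4.50 in the other early arrays. The label numbers of the arrays run from 17 to 19 in the late group and were 11, 14, 15 and 16 in the early group, so any effect of that order and time cannot be told apart.

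In a KO design the targeted gene comes first. Cyp1a1 was at 4.14, 3.84 and 4.71 in the late KO arrays, against 3.86 and 3.76 at week 4 and 4.16 and 4.24 at week 8. In WT it was 4.26 to 4.69 late and 4.38 to 4.60 early. All these values lie below the array medians (5.23 to 5.34 in the 7 KO arrays compared). The early KO arrays lay below the early WT arrays, while the late arrays of the genotypes overlapped through KO week 16 replicate 2. Whether the probes lie in the deleted part is not given in the sources used here. Cyp1b1, the other BaP-oxidising P450 of the family, was at 8.75, 8.82 and 8.39 in the late KO arrays, against 8.60, 8.44, 8.37 and 8.69 in the early KO arrays and 6.66 and 6.69 at week 0. The late and early arrays overlapped, and their difference was 0.13 ± 0.16 (SE; adjusted p = 0.652). The left-out array had 7.71.

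Across all 18784 genes, a single gene passed an adjusted p of 0.05 (limma, Benjamini-Hochberg; 0.00532% called), and it was higher in the late arrays. No gene was called lower (0%). At an unadjusted p under 0.05 there were 2854 genes (15.2%), 1618 higher (8.61%) and 1236 lower (6.58%). The difference was above 0 for 11475 genes (61.1%). Every late array lay above every early array for 1797 genes (9.57%), and below for 842 (4.48%). The named genes below other than the called one are therefore given as values, each with its adjusted p. None of the members of the 36 gene lists was called by limma (0.00532% of all genes were).

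The called gene was Stfa1, which encodes a stefin A. Its log2 intensities were 9.14 at week 12 and 10.47 and 9.32 at week 16 in the late arrays. The early arrays had 7.35 and 7.68 at week 4 and 7.52 and 7.58 at week 8, and week 0 had 7.05 and 7.25. Every late array lay above every early array, while the early arrays and week 0 lay close together. Stfa1 rose by 2.11 ± 0.26 log2 (SE), 4.32-fold, with an adjusted p of 0.0462. The left-out week 12 replicate 2 had 7.20, below every early array and between the week 0 arrays. With that array counted as late, the difference was 1.502 and the adjusted p 0.260. The call was also lost without week 16 replicate 2 (adjusted p = 0.142) and without any 1 of the 4 early arrays (adjusted p = 0.144 to 0.308). In bulk tissue, more cells of a type that makes a transcript and more transcript per cell cannot be told apart.

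Stfa3, a second stefin A gene, was at 9.32, 9.85 and 10.12 in the late arrays, against 8.22, 8.88, 8.74 and 8.01 in the early arrays and 8.31 and 8.09 at week 0. Every late array lay above every early array, and the left-out array had 9.45. The difference was 1.30 ± 0.24 (adjusted p = 0.306). Csta1, also of the stefin A family, was at 5.30, 6.16 and 5.78 late, against 4.67, 4.52, 4.70 and 4.34 early, with 5.78 in the left-out array. Its difference was 1.19 ± 0.24 (adjusted p = 0.306). Of 8 measured stefin A genes of the cluster, 1 was called, as were 0.00532% of all genes. All late arrays lay above all early arrays in 4, as in 9.57% of all genes and 190 of the 1068 olfactory receptors. All 8 differed upward, as did 61.1% of all genes and 998 of the 1068 olfactory receptors. The median was 0.64 (0.39 after cyclic loess, with 7 of 8 upward, and 0.28 with the SD covariate, with 5 of 8 upward). The 5 genes other than Stfa1, Stfa3 and Csta1 were dim, with mean levels of 2.55 to 3.46. The family was put together after Stfa1 and its relatives were seen at the top, so its count is a description only.

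**Figure D2:**
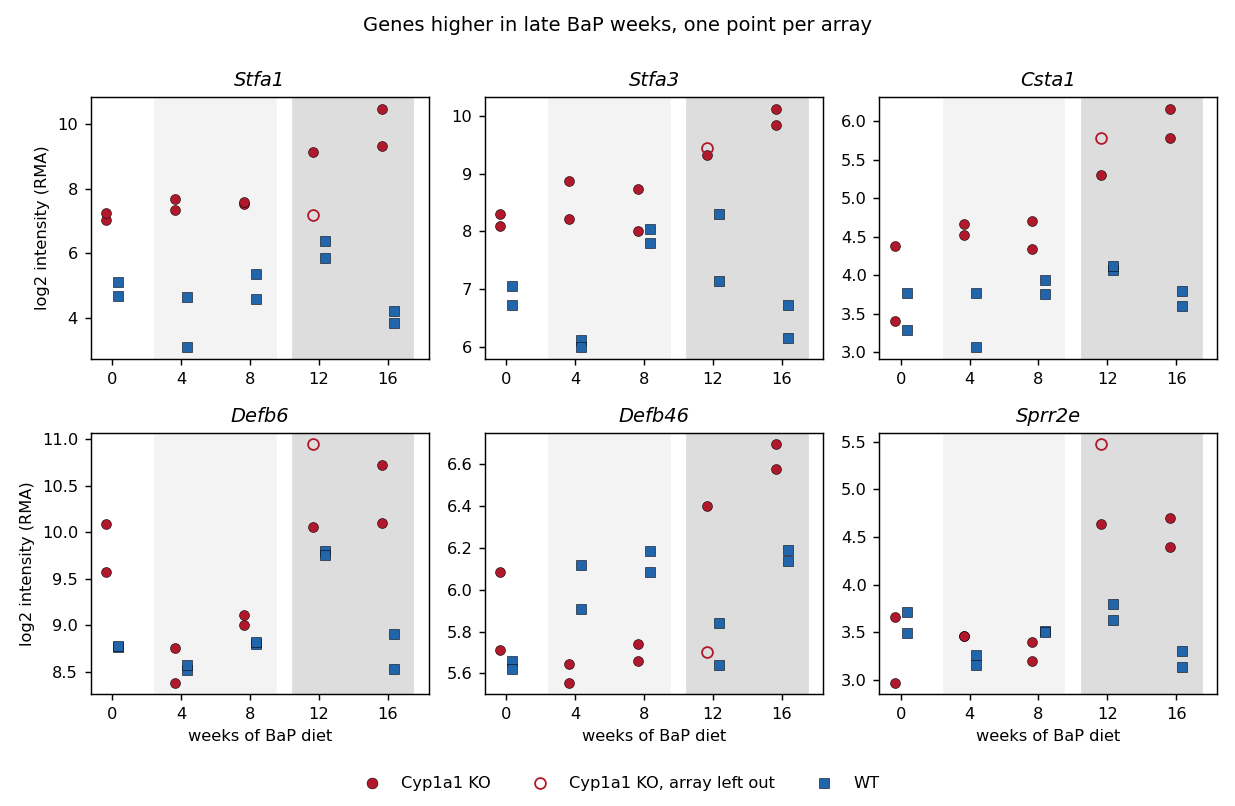
Log2 intensity (vertical axes) of 6 genes in each array, by weeks of BaP diet (horizontal axes). Filled circles are Cyp1a1 KO arrays, open circles the KO array left out, and squares WT arrays. Light shading marks the early and dark shading the late weeks. The filled late KO points lie above the early KO points in all 6 panels. In Defb6, 1 week 0 KO point lies within the late range and the other between the early and late points.

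Defb6, a beta-defensin of epithelia, was at 10.06, 10.72 and 10.10 in the late arrays, against 8.76 and 8.39 at week 4 and 9.11 and 9.0001 at week 8. Before BaP it was 10.09 and 9.57, so the early arrays were the low ones. The first of these values lay within the late range and the second between the early and late arrays. The late minus early difference was 1.48 ± 0.22 (adjusted p = 0.124), and the left-out array had 10.94. Defb46 was at 6.40, 6.69 and 6.58 late, against 5.65, 5.56, 5.74 and 5.66 early and 5.71 and 6.08 at week 0. Late and early did not overlap (difference 0.91 ± 0.15, adjusted p = 0.252), but the left-out array had 5.70. Of 42 beta-defensin genes measured, 40 differed upward with a median of 0.29, as did 61.1% of all genes and 998 of the 1068 olfactory receptors. Wholly above the early arrays lay 8, as did 9.57% of all genes and 190 of the 1068 olfactory receptors. Most of the beta-defensin genes are dim. After cyclic loess 28 of 42 differed upward with a median of 0.09, near the olfactory receptors, whereas Defb6 and Defb46 differed by 1.55 and 0.96. With the SD covariate 15 of 42 differed upward, with a median of -0.07.

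Sprr2e, a precursor of the cornified envelope, was at 4.63, 4.70 and 4.39 late, against 3.46, 3.46, 3.19 and 3.40 early and 2.97 and 3.66 at week 0. The groups did not overlap, and the left-out array had 5.47. The difference was 1.20 ± 0.18 (adjusted p = 0.124), from levels below the array median, where the background of the array was not measured here. Sprr2d was at 5.79, 6.87 and 5.0996 late, against 5.02, 4.74, 4.74 and 5.25 early, so that week 16 replicate 2 lay within the early range (0.98 ± 0.31, adjusted p = 0.306). All 9 Sprr2 genes differed upward with a median of 0.40, as did 61.1% of all genes and 998 of the 1068 olfactory receptors. Wholly above the early arrays lay 3, as did 9.57% of all genes and 190 of the 1068 olfactory receptors. After cyclic loess 8 of 9 differed upward, with a median of 0.15, and with the SD covariate 7 of 9, with a median of 0.12. Ivl encodes involucrin and is well measured here. It was at 8.68, 8.69 and 8.86 late, against 7.75, 8.44, 8.35 and 8.38 early, and the arrays did not overlap (0.51 ± 0.19, adjusted p = 0.306). Lce3a was at 5.19, 6.01 and 5.34 late, against 4.93, 5.02, 4.78 and 5.07 early (0.56 ± 0.19, adjusted p = 0.306).

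Over the 23 measured genes of the cornified layer list, 17 differed upward, as did 61.1% of all genes, and 3 lay wholly above the early arrays, as did 9.57% of all genes. The median was 0.22 (0.11 after cyclic loess), and these counts stand near those shares. The pattern was not shared by all members. Sprr1a, an abundant precursor, was at 12.43, 12.52 and 12.62 late against 12.38 to 12.54 early. Lor, which encodes loricrin, was at 5.54, 5.93 and 6.29 late against 6.72, 6.70, 5.67 and 5.66 early. Hair and hard keratin genes had a median level of 4.69, and 80.1% of all genes at 4 to 5 differed upward. Of these keratin genes, 15 of 17 differed upward (median 0.28, or 0.11 after cyclic loess). The median was 0.15 without week 16 replicate 2 and 0.03 with the SD covariate. Tchh, which encodes trichohyalin of the inner root sheath and of filiform epithelia, was at 7.75, 8.16 and 8.11 late against 7.34, 7.58, 7.01 and 7.35 early (0.69 ± 0.22, adjusted p = 0.306).

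Genes of neutrophils and acute inflammation mostly lay at low levels. The median level of the list was 4.22, and 80.1% of all genes at 4 to 5 differed upward. Of 23 measured, 21 differed upward, as did 61.1% of all genes and 998 of the 1068 olfactory receptors. Wholly above the early arrays lay 5, as did 9.57% of all genes and 190 of the 1068 olfactory receptors. An unadjusted p under 0.05 in this direction (limma) was found for 9, beside 8.61% of all genes and 214 of the 1068 olfactory receptors. The median was 0.33 (0.11 after cyclic loess, with 20 of 23 upward, and 0.20 with the SD covariate, with 16 of 23 upward). The mean level of the list was 4.62, 4.90 and 4.58 in the late arrays, against 4.41, 4.34, 4.27 and 4.45 early, 4.60 and 4.55 at week 0 and 5.34 in the left-out array. S100a8, a calcium-binding protein of neutrophils and stressed keratinocytes, was at 4.10, 4.94 and 3.78 late, against 3.59, 3.45, 3.32 and 3.45 early (0.82 ± 0.23, adjusted p = 0.306). The chemokine gene Cxcl1 was at 5.70, 5.93 and 5.82 late, against 5.38, 5.09, 5.37 and 5.54 early, and at 5.68 and 5.76 at week 0. Lcn2, a secreted iron-chelator carrier, is the bright member and did not separate, at 10.65, 9.95 and 8.95 late and 9.95, 10.45, 10.12 and 9.84 early. The part of these cells in the stefin values was not tested.

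Cyp2c37, a P450 of the epoxygenase family, had higher values at later weeks. It was 4.53 and 4.99 at week 0, 5.30 and 4.98 at week 4, 6.26 and 5.95 at week 8, 6.34 at week 12 and 7.47 and 7.34 at week 16. The late and early arrays did not overlap, but 6.34 and 6.26 were close (late minus early 1.43 ± 0.32, adjusted p = 0.306). With the week as a number in place of the groups, and without week 0, it was among 24 genes called (limma, adjusted p = 0.00464). With the SD covariate it differed by 0.81. In WT it was 4.06 and 4.26 at week 0, 4.63 and 4.67 at week 4 and 5.60 and 5.21 at week 8. The late WT arrays had 5.33 and 5.80 at week 12 and 4.87 and 5.03 at week 16. The left-out KO week 12 array had 4.84 for Cyp2c37. Its relative Cyp2c67 was at 4.03, 4.27 and 5.0013 late, against 3.28, 2.81, 3.35 and 3.25 early, and at 4.33 and 3.13 at week 0. All 13 Cyp2c genes differed upward as deposited (median 0.31), as did 61.1% of all genes and 998 of the 1068 olfactory receptors. After cyclic loess 9 of 13 differed upward (median 0.08), and 5 with the SD covariate (median -0.12).

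The 7 remaining genes of the higher set that the naming rule took were Mcpt2, Slc7a11, Sox8, Khdc3, Cyp4x1, Plcxd1 and Fank1, each with an adjusted p of 0.306. Mcpt2, a mast cell protease, was at 3.55, 3.34 and 3.38 late against 2.55, 2.47, 2.75 and 2.55 early. Its mean level was 2.91, and 92.8% of all genes with a mean level under 3 differed upward. The 10 genes of the mast cell list, without Mcpt2, had a median difference of 0.05 (-0.11 after cyclic loess), with 6 upward and 4 downward. Sox8, a transcription factor, was at 5.66, 5.89 and 5.59 late against 5.13, 5.05, 4.88 and 4.88 early, but at 5.35 and 5.54 at week 0. Differences of the 7 ran from 0.61 (Fank1) to 0.92 (Slc7a11). Of all 15 genes in the higher set, 9 had a mean level below the median gene.

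Among genes lower in the late arrays, those of cholesterol synthesis differed in one direction as deposited, though none was called. Of 17 measured, all 17 differed downward, with a median of -0.47 (-0.40 after cyclic loess, with 16 of 17 downward). The median level of these genes was 8.28, and 34.8% of all genes at 8 to 9 differed upward. An unadjusted p under 0.05 (limma) was found for 9, beside 6.58% of all genes in this direction. Only Mvk and Sc5d lay wholly below the early arrays, as did 4.48% of all genes. Mvk, mevalonate kinase, was at 7.42, 7.05 and 7.04 late, against 7.90, 7.66, 8.15 and 7.85 early and 7.26 and 7.44 at week 0 (-0.72 ± 0.17, adjusted p = 0.306). Week 0 was thus near the late arrays, and week 8 replicate 1 held the highest value. Sc5d, a sterol desaturase, was at 8.75, 8.17 and 8.52 late against 8.99, 8.84, 9.32 and 9.11 early (-0.59 ± 0.18, adjusted p = 0.306).

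Insig1, which retains the sterol sensor of the SREBP system in the endoplasmic reticulum, was at 9.20, 8.21 and 7.42 late, against 9.46, 9.07, 10.03 and 9.62 early (-1.27 ± 0.35, adjusted p = 0.306). Week 12 replicate 1 overlapped the early arrays and both week 16 arrays were below them. Lss, lanosterol synthase, was at 7.99, 7.21 and 7.29 late against 8.52, 7.73, 9.06 and 8.96 early (-1.07 ± 0.33, adjusted p = 0.306). Fdps, Sqle and Pmvk differed by -0.65, -0.67 and -0.78. In these, as in the list mean, week 4 replicate 2 was the lowest early array. The list mean was 8.28, 7.75 and 7.64 late, against 8.42, 8.05, 8.65 and 8.59 early and 8.07 and 8.29 at week 0. The list median stayed below 0 with week 12 replicate 1 as the only late array (-0.17, with 4 of 17 upward). Without week 4 replicate 2 it was -0.63. With the SD covariate it was -0.31, also with 4 of 17 upward. In that fit Mvk differed by -0.46, Sc5d by -0.50, Insig1 by -0.27 and Lss by -0.68. Fdps, Sqle and Pmvk differed there by -0.17, 0.05 and -0.63.

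**Figure D3:**
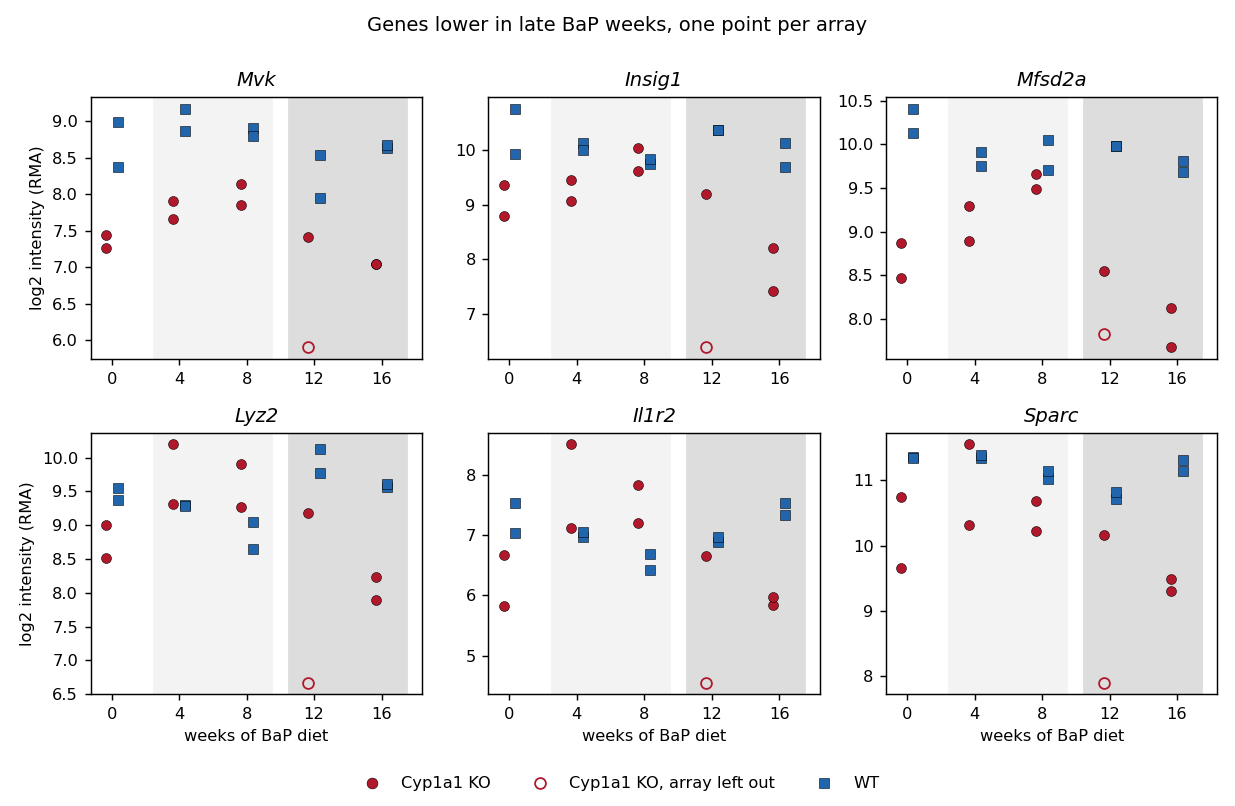
Log2 intensity (vertical axes) of 6 genes in each array, by weeks of BaP diet (horizontal axes), with the same symbols as in the plot of the higher genes. The late KO points lie below the early KO points for Mvk, Mfsd2a, Lyz2, Il1r2 and Sparc, while for Insig1 the week 12 array overlaps them. The left-out array is lowest in 5 of the 6 panels.

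Of lipid genes outside sterol synthesis, Mfsd2a and Fads3 were among the named lower genes. Mfsd2a, a carrier of lysophospholipids with long-chain fatty acids, was at 8.54, 7.67 and 8.12 late, against 9.29, 8.89, 9.66 and 9.48 early and 8.47 and 8.87 at week 0 (-1.22 ± 0.23, adjusted p = 0.306). Fads3, of the fatty acid desaturase family, was at 6.44, 5.43 and 5.64 late, against 6.90, 6.75, 7.09 and 7.11 early and 6.16 and 6.06 at week 0 (-1.12 ± 0.22, adjusted p = 0.306). For both, week 0 lay below the early arrays. The 23 sebaceous lipid genes had a median level of 7.61, and 30.7% of all genes at 7 to 8 differed upward. Of the 23, 5 differed upward and 18 downward, with a median difference of -0.23 (-0.17 after cyclic loess). In each direction 1 gene had an unadjusted p under 0.05 (limma). The median was -0.11 without week 16 replicate 1, -0.14 without week 8 replicate 1 and -0.03 with the SD covariate. Plin2, which coats lipid droplets, was at 11.06, 10.40 and 10.57 late against 10.97, 11.07, 11.49 and 11.37 early. Genes of fatty acid oxidation had a median level of 7.43, also within 7 to 8. Of 18 measured, 15 differed downward and 3 upward (median -0.22, or -0.21 after cyclic loess). Wholly below the early arrays lay 2 (4.48% of all genes did). The median was -0.10 without week 4 replicate 2, -0.33 without week 12 replicate 1 and -0.04 with the SD covariate.

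Glutathione and oxidative stress genes controlled by NRF2 differed in both directions. The median level of the list was 7.14, and 30.7% of all genes at 7 to 8 differed upward. Of 16 measured, 11 differed downward and 5 upward, with a median difference of -0.35 (-0.28 after cyclic loess). An unadjusted p under 0.05 (limma) was found for 7 downward and 2 upward, beside 6.58% and 8.61% of all genes. Wholly above the early arrays lay 2 and wholly below 1 (9.57% and 4.48% of all genes). The median was -0.19 without week 16 replicate 1 and -0.04 with the SD covariate. Slc7a11, the cystine and glutamate exchanger, was at 3.94, 4.13 and 3.73 late against 3.06, 3.12, 2.72 and 3.16 early (0.92 ± 0.17, adjusted p = 0.306). Gpx2, an epithelial glutathione peroxidase, was at 6.81, 6.36 and 6.45 late against 5.71, 5.57, 5.32 and 6.07 early (0.87 ± 0.21, adjusted p = 0.306). In the other direction, Gstp1, a glutathione transferase, was at 8.38, 7.21 and 6.68 late against 8.27, 8.67, 8.98 and 8.78 early (-1.25 ± 0.34, adjusted p = 0.306). Gsta4 was at 10.13, 9.14 and 9.05 late against 10.36, 10.58, 10.13 and 9.98 early. For both transferases the week 12 array lay within the early range and both week 16 arrays lay below it. With the SD covariate Gstp1 differed by -0.06 and Gsta4 by -0.04, while Slc7a11 differed by 0.78 and Gpx2 by 0.995. With week 12 replicate 1 as the only late array Gstp1 differed by -0.30 and Gsta4 by -0.13, while Slc7a11 differed by 0.92 and Gpx2 by 1.14.

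The AhR list of 13 genes had a median of -0.00 (-0.05 after cyclic loess), with 2 wholly below and none wholly above the early arrays (4.48% and 9.57% of all genes). Nqo1, a quinone reductase induced through AhR and NRF2, was at 5.73, 5.01 and 4.75 late, against 5.78, 5.88, 5.96 and 6.06 early and 5.07 and 5.24 at week 0 (-0.75 ± 0.21, adjusted p = 0.306). The week 16 values were thus at or below those before BaP, whereas Cyp1b1 stayed above its week 0 level in every late array. Aldh3a1, an aldehyde dehydrogenase induced through AhR, was at 6.45, 6.06 and 5.76 late, against 6.65, 6.44, 6.59 and 6.94 early and 5.84 and 5.70 at week 0. Of 21 genes of p53 and DNA damage, 13 differed downward and 8 upward (median -0.10, or -0.02 after cyclic loess). Of 28 cell cycle genes, 22 differed downward and 6 upward (median -0.16, or -0.07 after cyclic loess). Wholly below the early arrays lay 2 of these, near the 4.48% of all genes. The p53 and cell cycle lists had median levels of 6.71 and 6.31, and 32.5% of all genes at 6 to 7 differed upward. The cell cycle median was -0.08 without week 16 replicate 2, 0.02 with week 12 replicate 1 as the only late array, and 0.12 with the SD covariate, with 19 of 28 upward.

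Il1r2, the decoy receptor for interleukin 1, had the widest downward difference of the named genes. It was at 6.66, 5.85 and 5.97 late, against 7.12, 8.5004, 7.83 and 7.21 early and 5.83 and 6.67 at week 0 (-1.503 ± 0.33, adjusted p = 0.306). Lyz2, lysozyme of macrophages and other myeloid cells, was at 9.18, 8.23 and 7.89 late, against 9.31, 10.19, 9.90 and 9.27 early (-1.23 ± 0.30, adjusted p = 0.306). The week 12 array lay just below the lowest early array. Timp3, an inhibitor of matrix metalloproteinases, was at 7.98, 7.84 and 7.73 late against 8.81, 9.06, 8.48 and 8.55 early (-0.88 ± 0.19, adjusted p = 0.306).

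The cell type markers set week 4 replicate 2 apart here as well. The 18 macrophage genes had a mean level of 6.40, 6.34 and 6.06 in the late arrays, against 6.40, 7.13, 6.39 and 6.197 early, where 7.13 is week 4 replicate 2. Csf1r, the receptor that defines macrophages, was at 6.198, 5.87 and 5.70 late against 6.33, 7.65, 6.50 and 6.15 early, and the groups overlapped. The list median was -0.31 (-0.25 after cyclic loess), -0.00 without week 4 replicate 2, -0.10 without week 16 replicate 2, and 0.25 with the SD covariate, with 15 of 18 upward. Stromal and collagen genes had a mean level of 6.62, 6.56 and 6.53 late, against 6.72, 7.43, 6.56 and 6.56 early, again with week 4 replicate 2 highest. Their median was -0.13 (-0.16 after cyclic loess), 0.02 without that array and 0.13 with the SD covariate. Sparc, a matrix glycoprotein, was at 10.16, 9.49 and 9.30 late against 10.32, 11.54, 10.68 and 10.23 early (-1.04 ± 0.34, adjusted p = 0.306), and -0.76 without it. Lyz2 and Il1r2 differed by -1.06 and -1.22 without that array, and by -0.04 and -0.38 with the SD covariate.

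The remaining genes of the lower set that the naming rule took were Rbmx, Chmp1a, Ehd4, Nup62, Gon4l, Tmem147, Dnajc18, Clmn and Slc30a6, each with an adjusted p of 0.306 and with differences from -0.68 (Clmn) to -1.08 (Tmem147). Nup62, a nuclear pore protein, was at 7.59, 8.06 and 7.79 late against 8.76, 8.93, 8.81 and 8.81 early, although week 0 held 7.87 and 8.98. Chmp1a, of the ESCRT-III machinery, was at 4.98, 4.64 and 5.07 late against 5.53, 5.72, 5.72 and 6.09 early. Ehd4, of endocytic recycling, was at 6.38, 5.76 and 5.64 late against 6.73, 6.93, 6.83 and 7.13 early. For 13 of the 15 genes of the lower set, the week 0 mean lay below all early arrays, as it did for 653 of the 842 genes below early. Choosing genes whose early arrays are all higher than the late ones favours this, so the count is a description only. For the 15 genes of the higher set, the week 0 mean lay above all early arrays in 9, and for all 1797 genes above early in 1344. The week 0 SDs of 1.78 and 1.86 were also below those of the early arrays, and the part of array ranges in these counts was not tested.

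**Figure D4:**
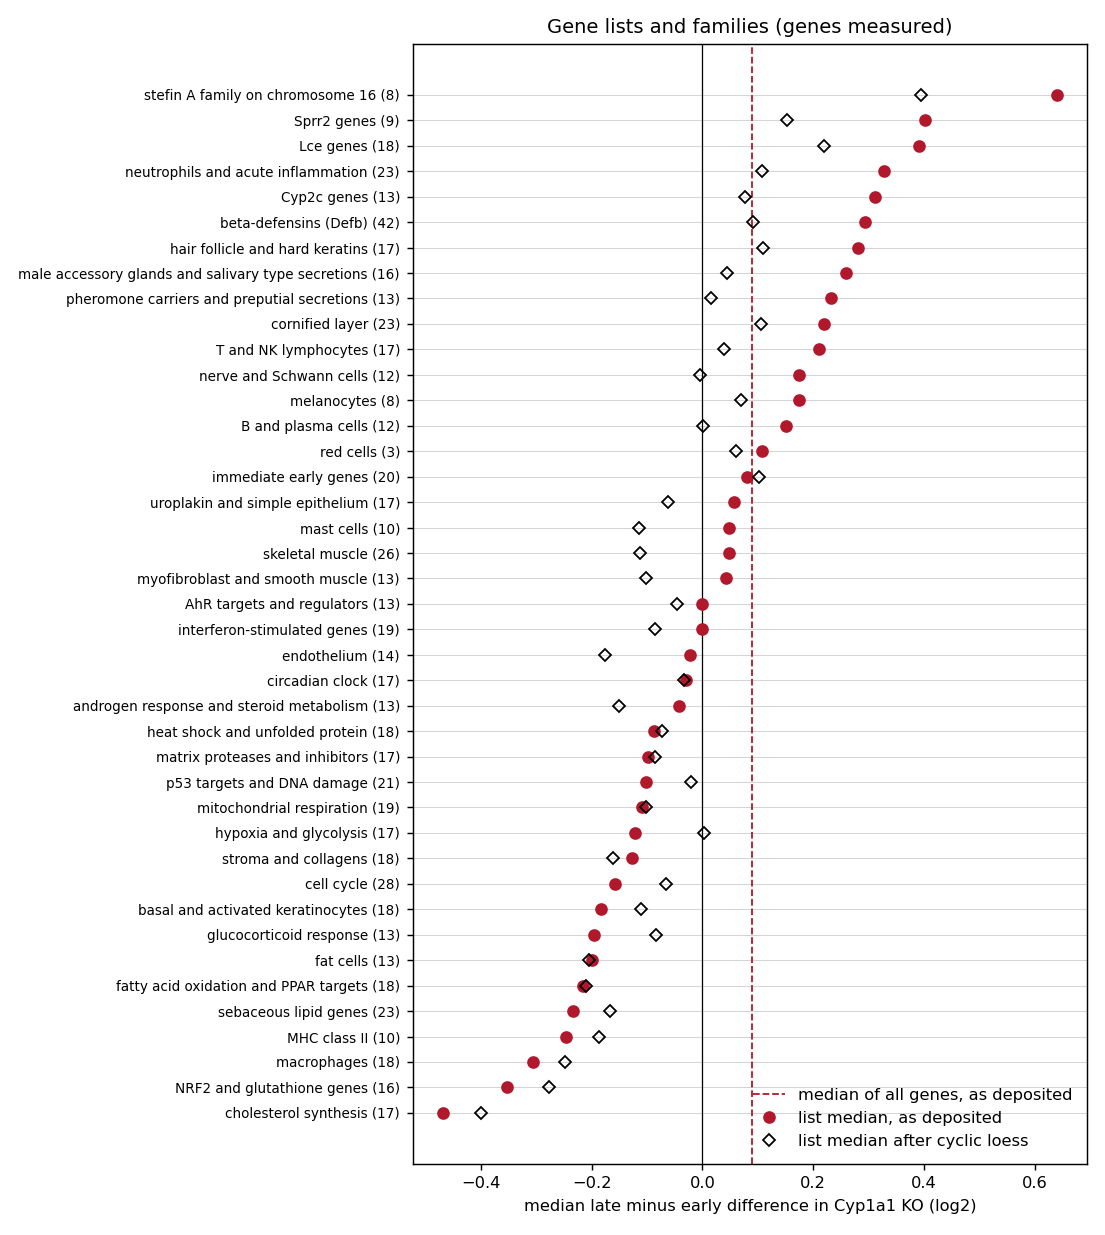
Median late minus early difference in Cyp1a1 KO arrays (horizontal axis, log2) of each gene list or family, with the number of genes measured in brackets. Filled circles are the deposited values, open diamonds the values after cyclic loess normalization, and the dashed line the median of all genes as deposited (0.09). Stefin A genes are at the top (0.64 and 0.39) and cholesterol synthesis at the bottom (-0.47 and -0.40) by the deposited values.

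The same change in WT glands was set against that in KO glands in a fit of 19 arrays. No gene was called for a difference between the genotypes in the late minus early change (limma, 0% of 18784), and 2199 genes (11.7%) had an unadjusted p under 0.05. Of the 30 genes in the higher and lower sets, chosen for their KO change, 19 had the same direction in WT, 12 of 15 higher and 7 of 15 lower. Their adjusted p values for the difference between genotypes ran from 0.306 to 0.508 in the higher set and from 0.306 to 0.831 in the lower set.

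Stfa1 in WT was at 3.84 to 6.39 in the late arrays and 3.09 to 5.37 in the early arrays, a difference of 0.65 between the means. The KO minus WT difference in change was 1.46 ± 0.71 (adjusted p = 0.433). Within WT the 2 late weeks went apart: week 12 had 6.39 and 5.85, and week 16 had 3.84 and 4.21. Before BaP, Stfa1 was already 7.05 and 7.25 in KO against 5.12 and 4.69 in WT. Defb6 in WT was likewise high at week 12 (9.80 and 9.75) and not at week 16 (8.91 and 8.53), against 10.72 and 10.10 in KO at week 16. Defb46 had the smallest p value of the named genes for the genotype difference, at 1.03 ± 0.19 (adjusted p = 0.306). In WT its late arrays, at 5.64 to 6.19, overlapped its early arrays, at 5.91 to 6.19.

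Some genes differed in opposite directions. Lyz2 was at 9.56 to 10.13 in late WT arrays, against 8.65 to 9.30 in early WT arrays, so it was higher late in WT and lower late in KO. The difference of the changes was -1.93 ± 0.37 (adjusted p = 0.306). Il1r2 differed by -1.503 in KO and by 0.39 in WT (difference of changes -1.90 ± 0.41, adjusted p = 0.347). Atf3, a stress-induced transcription factor, differed by -0.89 in KO and by 0.88 in WT (-1.77 ± 0.41, adjusted p = 0.347), where WT week 12 replicate 2 was high at 10.19. Cholesterol synthesis genes had a median of -0.47 in KO and 0.12 in WT. For Mvk the genotypes did not part in direction, with -0.72 in KO and -0.48 in WT (difference -0.24 ± 0.25, adjusted p = 0.728).

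**Figure D5:**
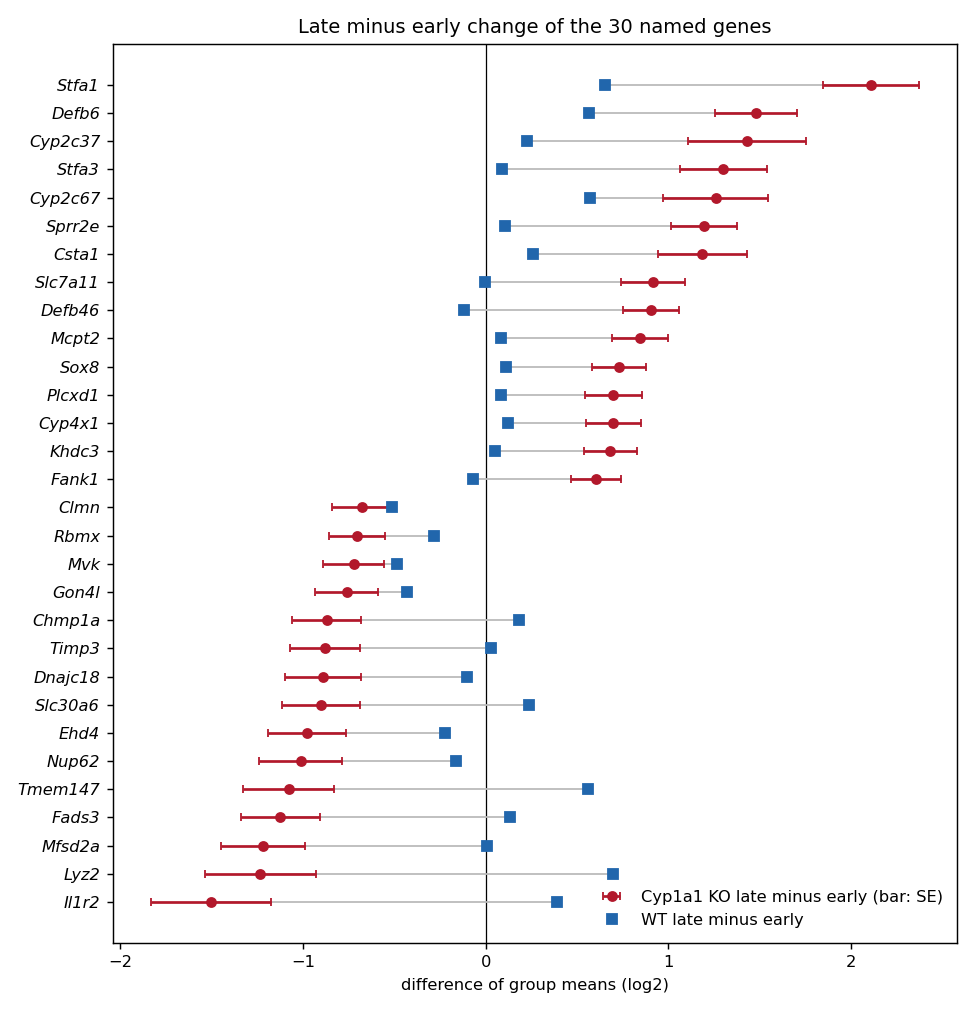
Late minus early difference of group means (horizontal axis, log2) for the 30 genes of the higher and lower sets in Cyp1a1 KO (circles, bars are SE) and in WT (squares). The genes were chosen for their KO change, so circles lie far from 0 by choice. WT values are nearer 0 for all 30 genes, and for 11 of them on the other side of 0.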

How the data were processed

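RNA of mouse preputial glands was amplified (Ovation Pico WTA), labelled with biotin and hybridised to 1-colour Affymetrix arrays, per the labels' protocols. The deposited values are log2 intensities that the authors normalized with RMA, per the submitters' processing notes, while its version and the annotation build are not given in the sources used here. Values came for 21212 probe sets, of which 18786 had 1 symbol in the platform annotation, 6 several and 2420 none listed. Of 2 genes with several probe sets, the one with the highest mean was kept, leaving 18784 genes. No 2 arrays held identical values.

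The values were used as deposited, with no filter. A model with 1 mean for each of week 0, early and late was fitted to 9 Cyp1a1 KO arrays with limma 3.58.1 (R 4.3.3), and late minus early was tested by limma's moderated test, two-sided, with Benjamini-Hochberg adjustment over all genes and a threshold of 0.05. The difference from WT was an interaction in a fit of 19 arrays. The late minus early fit was tested on simulated data. The number of arrays limits the precision, and the labels name separate mice by number only. The 15 named genes in each direction were the called genes, filled up by smallest p among genes whose late and early arrays did not overlap and whose difference was at least 0.58, without predicted genes and olfactory or vomeronasal receptors. From each gene list, as many as 4 members were named by their p, and other genes were named after their values were seen. The comparison, the lists and the families were chosen with earlier results of these data known. Replicate numbers come from array labels, and same-numbered arrays did not deviate together (correlations of -0.19 to 0.30), so they were not treated as pairs. Alternatives covered normalization, filtering, weights, the samples in the fit, the week as a number, a replicate block, and each array left out. Those added after seeing the data were cyclic loess, the array SD as a covariate, week 12 replicate 1 as the only late array, and leaving out week 0 arrays.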

Additional observations from a re-analysis of the deposited data

Results flagged for a closer look

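In 67 genes and 201 groups of arrays, 12 groups held an array far from the others, where the gap to its nearest neighbour, as a share of the group's range, was above Dixon's critical value. Chance gives about 1 such group in 20. In early KO arrays, week 4 replicate 2 was the distant array for Tnnt3 (8.58, a gap of 0.967 of the range), Dnajc18 (6.54, 0.905), Pmvk (6.26, 0.915) and Sqle (9.13, 0.861). It was high for Tnnt3 and Dnajc18 and low for Pmvk and Sqle. For Ivl, week 4 replicate 1 was the low array at 7.75 (0.872). In early WT arrays, week 8 replicate 1 was the high array for Slc7a11 (3.80, 0.859), Cyp4x1 (3.35, 0.947), Cyp2c67 (3.54, 0.867) and Lce3a (5.08, 0.859). Timp3 was high in WT week 8 replicate 2 (9.04, 0.853), and Tnnt3 in WT week 4 replicate 1 (6.25, 0.921). Among late WT arrays, Atf3 was high in week 12 replicate 2 (10.19, 0.918), and that array enters the difference between genotypes given for Atf3.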

How the results depend on the processing

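The genes of the higher and lower sets were chosen for arrays that do not overlap, which fixes their direction under most alternatives. Their size was not fixed: with the array SD as a covariate Lyz2 differed by -0.04 in place of -1.23. The number of called genes did not hold. In KO, 1 gene was called as reported. It was 0 with each array centred on its median, only genes with a mean of at least 6, week 12 replicate 2 kept, all 30 arrays sharing the spread, a mean for each week, the array SD as a covariate (487 at unadjusted p under 0.05) or week 12 replicate 1 as the only late array (232). It was 2 with only the arrays compared, 24 with the week as a number, and 1200 with array weights. Leaving out 1 array gave 0 to 375, the 375 without week 12 replicate 1. With the replicate block it was 0 (limma; 2516 at unadjusted p under 0.05), and Stfa1 had an adjusted p of 0.142. For the difference between KO and WT, 0 genes were called as reported, 664 with array weights, 7 with a mean for each week, and 0 to 431 on leaving out 1 array, the 431 without KO week 12 replicate 1. Stfa1 differed by 1.502 to 2.497 and was called in 11 of 24 alternatives. Its adjusted p values (limma) ran from 0.000879 with array weights to 1.00 with the array SD as a covariate. The 11 were not all separate. Leaving out either week 0 array gave the same value as only the arrays compared (limma, adjusted p = 0.0339). The mean of all probe sets touches only 2 genes, and Stfa1 kept its adjusted p of 0.0462 there (limma).

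Some genes outside those sets reversed. Differences with the array SD as a covariate follow, each with the difference as deposited in brackets. They were -0.14 (0.23) for Cyp1a1, 0.16 (-1.04) for Sparc, 0.043 (-0.94) for Pdgfra and 0.21 (-0.74) for Csf1r. For Tnnt3 it was 0.37 (-0.41), for Krt5 0.14 (-0.45), for Krt14 0.15 (-0.31), for Sqle 0.046 (-0.67) and for Cma1 0.13 (-0.17). Cyp1b1 had -0.11 with week 12 replicate 2 kept, and Fdps 0.0067 with week 12 replicate 1 as the only late array. Leaving out 1 array gave -0.013 (without week 16 replicate 2) to 0.42 for Cyp1a1, and for Tnnt3 -0.70 to 0.43 and for Cma1 -0.32 to 0.018, where the positive value was without week 4 replicate 2. With the array SD as a covariate, list medians turned for macrophages (0.25), stroma (0.13), cell cycle (0.12), basal keratinocytes (0.26), MHC class II (0.39), hypoxia (0.60), T and NK cells (-0.03), B cells (-0.02), beta-defensins (-0.07) and Cyp2c genes (-0.12), among others. The causes were not tested. Array background was not measured here.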

Other observations

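Lymphocyte genes lay at low levels. The 17 T and NK cell genes had a mean level of 4.57 to 4.92 in the late KO arrays, against 4.45 to 4.63 in the early KO arrays, and a median difference of 0.21 (0.04 after cyclic loess, 0.05 without week 16 replicate 1, 0.32 without week 12 replicate 1 and -0.03 with the array SD as a covariate). The 12 B and plasma cell genes had a median of 0.15 (0.00 after cyclic loess, 0.09 without week 12 replicate 1 and -0.02 with the array SD as a covariate). Cd79a, a subunit of the B cell receptor, was at 3.86, 3.73 and 4.17 late against 3.31, 3.23, 3.43 and 3.09 early. Of 19 genes of mitochondrial respiration, 15 differed downward in KO (median -0.11), where the WT median was 0.19. The median level of these genes was 9.29, and 45.6% of all genes at 9 to 10 differed upward in KO. Immediate early genes had a median of 0.08 in KO and 0.45 in WT. Interferon-stimulated genes had a median of -0.00 in KO and -0.08 in WT.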
